A study of Mus musculus with 12 samples.

Results

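The 55 genes described here belong to the Wnt and R-spondin pathway: 16 Wnt ligands, 10 Frizzled receptors, 2 co-receptors, 3 R-spondins, 3 R-spondin receptors, 8 secreted inhibitors, 2 cytoplasmic transducers, 4 TCF/LEF transcription factors and 7 genes known as targets or feedback regulators. They were matched by mouse symbol, and all 55 were found among the 49315 genes counted; Wisp1 was matched under its current symbol, Ccn4. A total of 47 of the 55 passed the filter on low counts, against 17164 of all genes, and the other 8 (Wnt3, Wnt3a, Wnt16, Fzd10, Dkk1, Sfrp5, Wif1 and Rspo1) were left untested. RNA was sequenced from primary Müller glia, radial glial cells that span the neural retina, which had shared transwell plates with cultured retinal pigment epithelium (RPE). PNU-282987, abbreviated PNU, activates α7 nicotinic acetylcholine receptors; the RPE cells were treated with it at 100 nM or with DMSO alone as solvent control. Libraries fell into 4 groups of 3: cells facing PNU-treated or DMSO-treated RPE for 2 h, and likewise for 6 h. All cells were from wild-type mice and had been passaged before use. The comparison asked how Müller glia responded to factors from treated RPE cells at each time. One protocol states 0.1% DMSO and the other 1%, which leaves the concentration unsettled, and no strain or age of the animals is labelled. The samples are called biological replicates without saying whether they came from separate animals or cultures, so every p-value measures only the spread between these samples.

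Wnt proteins are secreted ligands that bind a Frizzled receptor together with the co-receptor Lrp5 or Lrp6, which stabilises β-catenin (Ctnnb1) and lets it act with TCF/LEF factors on target genes; some ligands, such as Wnt5a and Wnt11, are best known for signalling without β-catenin. R-spondins bind Lgr4, Lgr5 or Lgr6 and remove the ubiquitin ligases Znrf3 and Rnf43, which otherwise clear Frizzled receptors from the cell surface. In the mammalian retina the pathway is known for its part in vessel growth, through Fzd4, and has been studied in the proliferation of Müller glia.

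The promoter windows below, from 250 bases before to 50 bases after each RefSeq start (assembly GRCm38.p6), belong to both genes that passed the test at 6 h and to both ligands whose window held a TCF/LEF motif. RefSeq gave 47 windows for 37 of the 55 genes. The motif was searched as CTTTGAA or CTTTGAT on either strand, which reads TTCAAAG or ATCAAAG on the other, and it was found in 3 of the 47 windows (6.38%), against 2842 of all 32851 RefSeq promoters (8.65%). The 3 windows belonged to Wnt5b, Wnt11 and Dkk1. Wnt4 (chr4:137277385-137277684, plus strand) and Lgr4 (chr2:109917397-109917696, plus strand) held no motif, which says only that these letters are not in these windows. Neither did the window of Axin2, a widely used target of the pathway. Wnt5b (chr6:119449337-119449636, minus strand) held CTTTGAT at position -71 from the RefSeq start, and Wnt11 (chr7:98834862-98835161, plus strand) held ATCAAAG at position -51; Wnt5b had 2 other windows and Wnt11 had 1, all without the motif. Capitals mark the motif. The 4 sequences read 5′ to 3′ on the strand of the gene.
Wnt4: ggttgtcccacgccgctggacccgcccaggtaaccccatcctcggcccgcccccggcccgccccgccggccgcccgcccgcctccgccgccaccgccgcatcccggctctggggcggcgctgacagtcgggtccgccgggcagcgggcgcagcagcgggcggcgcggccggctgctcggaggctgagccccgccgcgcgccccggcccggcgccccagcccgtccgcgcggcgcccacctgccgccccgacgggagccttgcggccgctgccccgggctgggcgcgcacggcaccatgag
Lgr4: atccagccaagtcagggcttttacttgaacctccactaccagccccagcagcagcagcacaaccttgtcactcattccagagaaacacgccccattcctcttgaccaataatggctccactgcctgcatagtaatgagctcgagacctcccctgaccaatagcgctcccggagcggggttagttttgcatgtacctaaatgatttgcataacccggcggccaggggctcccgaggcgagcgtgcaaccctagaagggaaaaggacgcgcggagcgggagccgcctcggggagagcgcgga
Wnt5b: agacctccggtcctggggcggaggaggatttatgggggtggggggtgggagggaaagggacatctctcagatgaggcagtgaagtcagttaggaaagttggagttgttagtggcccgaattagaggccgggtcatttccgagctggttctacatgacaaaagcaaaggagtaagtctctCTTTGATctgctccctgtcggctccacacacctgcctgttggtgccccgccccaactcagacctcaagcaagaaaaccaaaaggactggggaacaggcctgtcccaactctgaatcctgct
Wnt11: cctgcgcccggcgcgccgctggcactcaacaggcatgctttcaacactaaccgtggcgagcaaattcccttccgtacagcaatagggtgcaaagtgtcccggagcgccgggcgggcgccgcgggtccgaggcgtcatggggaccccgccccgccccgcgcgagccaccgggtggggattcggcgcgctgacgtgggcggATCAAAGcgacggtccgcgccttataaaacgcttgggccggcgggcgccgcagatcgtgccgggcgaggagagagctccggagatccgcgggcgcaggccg

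Library totals ran from 44332013 to 66518799 counts, so that 3 counts, taken as the floor of detection, corresponded to 0.0451 to 0.0677 CPM (counts scaled to a library's total); this floor covers counting error only. Of 12 Müller glia markers, 6 had a median of at least 1 CPM. Vim was at 6063 to 7451 CPM, Sox9 at 63.4 to 292 CPM and Glul at 61.5 to 94.4 CPM. Dkk3 was at 9.54 to 67.5 CPM, Apoe at 5.35 to 14.2 CPM and Slc1a3 at 0.421 to 3.72 CPM. By contrast, Rlbp1 (at most 0.302 CPM), Aqp4 (at most 0.218 CPM), Kcnj10 (at most 0.110 CPM) and Gfap (at most 0.326 CPM) were near the floor. The fibroblast gene Col1a1 reached 3509 to 4895 CPM and the pericyte gene Pdgfrb 944 to 1391 CPM. A median of at least 1 CPM was reached by 8 of 10 fibroblast markers and 9 of 10 pericyte and smooth muscle markers. The fibroblast genes Lum (at most 1.13 CPM) and Fap (at most 0.521 CPM) and the pericyte gene Rgs5 (at most 0.404 CPM) were low. The RPE genes Rpe65, Lrat and Tyr did not exceed the floor and Rgr was at 0. These levels go against the label in part. Rlbp1, Aqp4, Kcnj10 and Gfap were nearly absent and most fibroblast and pericyte markers were present, some of them abundant, while Vim, Sox9 and Glul were expressed. The results below are therefore given for cultures labelled as Müller glia. In bulk RNA, fewer cells of a type and less RNA per cell cannot be told apart. Several libraries stood apart. DMSO 2 h replicate 3 lay nearer to the PNU 2 h mean than to its own group for 35 of the 47 tested genes (74.5%, against 76.6% of all tested genes). PNU 6 h replicate 1 lay nearer to DMSO 6 h for 30 of 47 (63.8%, against 62.1%). Replicates 2 and 3 of each PNU group and all 3 DMSO 6 h libraries were nearly identical, with a pairwise coefficient of variation beyond counting noise of 0.0163 to 0.0223, against 0.148 to 0.381 for other pairs of a group. The Y-linked gene Ddx3y was at 2.23 CPM in PNU 2 h replicate 1, 5.00 CPM in DMSO 2 h replicate 3 and 7.43 and 6.74 CPM in PNU 6 h replicates 2 and 3, and at most 0.141 CPM in the other 8. The progenitor and glial factor Sox2 was at 8.27 and 8.81 CPM in PNU 2 h replicates 2 and 3 and at 9.39 CPM in each of PNU 6 h replicates 2 and 3, and at most 0.243 CPM elsewhere. The part of these library differences in the results below was not tested, other than by leaving libraries out.

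β-catenin and the receptors Fzd1, Fzd2, Fzd7 and Fzd8 were expressed above every ligand. Per kilobase of transcript, Ctnnb1 was the highest, with a median over the 12 libraries of 102 CPM per kilobase, followed by the receptors Fzd2 (48.8), Fzd7 (42.7), the R-spondin Rspo2 (34.7), Fzd1 (25.5), the inhibitor Sfrp1 (25.1) and the matricellular protein gene Wisp1 (21.6). Fzd8, Lgr6 and the scaffold Axin1 completed the 10 highest on that scale, at 18.9, 18.5 and 16.0, and 8 of these 10 were also among the 10 highest by CPM. The highest ligand, Wnt5a, ranked 16 of 55 with a median of 7.50 CPM per kilobase. A total of 37 of the 55 genes had a median of at least 1 CPM: 7 of 16 ligands, 8 of 10 Frizzled receptors, both co-receptors, 2 of 3 R-spondins, 2 of 3 R-spondin receptors, 4 of 8 secreted inhibitors, both cytoplasmic transducers, all 4 TCF/LEF factors and 6 of 7 targets or feedback genes. Wnt3a, a ligand much used in experiments to stimulate the pathway, never exceeded 1 count, and the inhibitors Dkk1, Sfrp5 and Wif1 did not exceed 0.186 CPM.

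**Figure D1:**
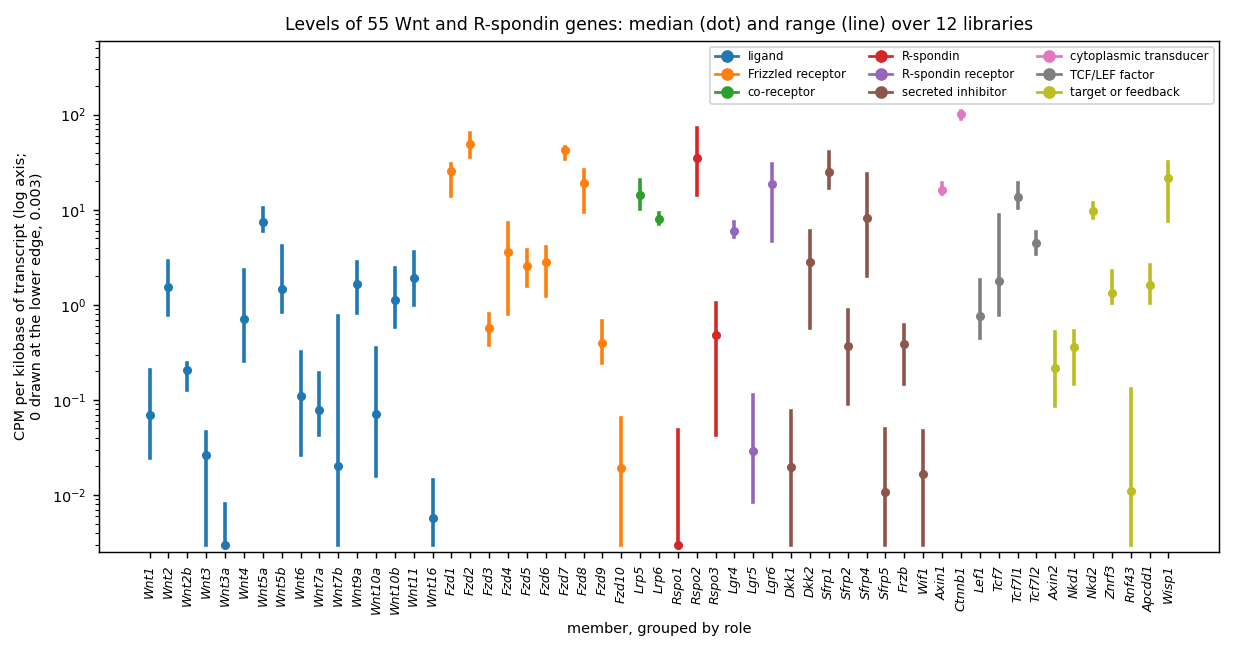
Level of each of the 55 genes as CPM per kilobase of transcript (log axis, with 0 drawn at the lower edge), the dot being the median and the line the range over all 12 libraries, grouped and coloured by role. Ctnnb1 stands highest at 102, Fzd1, Fzd2, Fzd7 and Fzd8 lie above every ligand while the other Frizzled receptors lie below Wnt5a, and Wnt7b, Rspo1 and Rnf43 are among those that reach down to 0.

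At 2 h, most ligands lay higher in the cultures facing PNU-treated RPE cells and most Frizzled receptors lower, but no single gene of the 47 passed. Fold changes are log2 values, PNU over DMSO, with their standard error (SE), and pass at an adjusted p under 0.05. edgeR called 0 of 47, against 0.291% of all tested genes, and limma-voom 0, against 0.437%. DESeq2, which ran without the filter, called 11 of 55 (20.0%, against 4.93% of all 49315 genes). Only 32751 of these genes had a count in any library, and a gene without counts cannot be called. The share of all genes in DESeq2 is lowered by this, here and below, and is no like background for the 55 genes. At an unadjusted p under 0.05 there were 22 of 47 (46.8%), against 30.0% of all genes. All 3 PNU libraries lay on 1 side of all 3 DMSO libraries for 16 of 47 (34.0%), against 22.7% of all genes, 7 of them higher (14.9%, against 9.06% of all genes) and 9 lower with PNU (19.1%, against 13.6%).

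Among the 13 tested ligands, 12 had a positive fold change at 2 h, with a median of 0.88, while the median was 0.17 over the 47 genes and -0.015 over all genes tested. The summed level of the ligands was 92.8, 118 and 122 CPM with PNU and 67.0, 73.3 and 97.0 CPM with DMSO, so that DMSO replicate 3 lay above 1 PNU library. Wnt7b, a ligand of vessel growth in the mouse brain, had 0.133, 2.55 and 3.38 CPM with PNU, against 0, 0.0386 and 0.0313 CPM with DMSO. The DMSO libraries held 0, 2 and 2 counts, so no fold is given, and the gene narrowly missed the threshold (edgeR adjusted p = 0.0572). It passed in 6 of 20 alternatives, among them without PNU 2 h replicate 1 (0.00784) or DMSO 2 h replicate 3 (0.00965), with adjusted p-values of 3.87e-06 to 0.550 over all 20. PNU replicate 1 lay far below the other two PNU libraries, but above all DMSO libraries. Wnt11 had 13.3, 14.3 and 14.7 CPM with PNU and 5.88, 4.11 and 10.5 CPM with DMSO, with the lowest PNU library above the highest DMSO library. Wnt9a had 5.26, 8.86 and 9.32 CPM with PNU and 2.79, 2.78 and 5.86 CPM with DMSO, and the groups overlapped through DMSO replicate 3. Wnt5a, the most abundant ligand, had 55.7, 65.5 and 66.9 CPM with PNU, against 46.3, 55.6 and 62.1 CPM with DMSO, with overlap.

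Most receptors lay lower with PNU at 2 h. Of the 9 tested Frizzled genes, 5 (Fzd2, Fzd4, Fzd5, Fzd7 and Fzd8) had all PNU libraries below all DMSO libraries, as did 13.6% of all tested genes, and the median fold change of the 9 was -0.54. Fzd3, Fzd6 and Fzd9 went the other way, with log2 fold changes of 0.51 ± 0.20, 0.87 ± 0.33 and 0.54 ± 0.33. Of these, Fzd9 had all PNU libraries above all DMSO libraries, as did 9.06% of all tested genes. Fzd4, the Norrin and Wnt receptor of retinal vessels, had 11.0, 5.40 and 5.59 CPM with PNU and 39.1, 48.8 and 12.4 CPM with DMSO (log2 fold change -2.15 ± 0.44, edgeR adjusted p = 0.0583). Fzd5, a receptor needed for eye development, had 12.4, 11.6 and 11.0 CPM with PNU and 22.7, 26.4 and 14.3 CPM with DMSO (-0.81 ± 0.18, edgeR adjusted p = 0.0589). In both genes the groups did not overlap, DMSO replicate 3 was the lowest DMSO library by far, and neither passed. Fzd4 passed in 6 of 22 alternatives, among them without DMSO 2 h replicate 3 (adjusted p = 0.000116) and with DESeq2 (1.6e-05), and Fzd5 in 5 of 22, among them the same settings (2.97e-05 and 0.00159). Fzd8 followed the same order, with 32.0, 32.4 and 32.2 CPM with PNU and 87.5, 74.2 and 35.4 CPM with DMSO. Fzd7 was narrower, with 159, 156 and 157 CPM with PNU and 197, 189 and 166 CPM with DMSO. Lrp6 (103, 104 and 101 CPM with PNU and 99.2, 128 and 113 CPM with DMSO) and Ctnnb1 (475, 468 and 470.3 CPM with PNU and 546, 556 and 515 CPM with DMSO) differed little; the Lrp6 groups overlapped, while all PNU libraries were below all DMSO libraries for Ctnnb1. The counts at 2 h turned on 1 library: without DMSO 2 h replicate 3, edgeR called 27 of 47 (16 higher and 11 lower with PNU), beside 7724 of 17641 genes overall. Without that library and PNU 6 h replicate 1, it called 36 of 47, beside 9080 of 17406. It called 5 without PNU 6 h replicate 1, beside 487 of 17604, and 2 without PNU 2 h replicate 1, beside 130 of 17639. The share of members was 57.4%, 76.6%, 10.6% and 4.26% in these 4 settings in turn, against 43.8%, 52.2%, 2.77% and 0.737% of all genes. Beside these genes at 2 h, the summed level of 10 pericyte and smooth muscle markers was 4476 to 4919 CPM with PNU and 3606 to 4341 CPM with DMSO, with 1 risen. That of the 12 Müller glia markers was 7418 to 7749 CPM with PNU and 6246 to 7333 CPM with DMSO, none passing. Most of this second sum was Vim, at 7036, 7354 and 7369 CPM with PNU and 7058, 6063 and 7068 CPM with DMSO. The largest term of the first was Acta2, at 2364, 2117 and 2079 CPM with PNU and 1682, 1502 and 2136 CPM with DMSO. Notch3, of the same list, was at 78.9, 47.8 and 50.7 CPM with PNU and 246, 216 and 43.3 CPM with DMSO. The part of these markers in the results at 2 h was not tested.

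**Figure D2:**
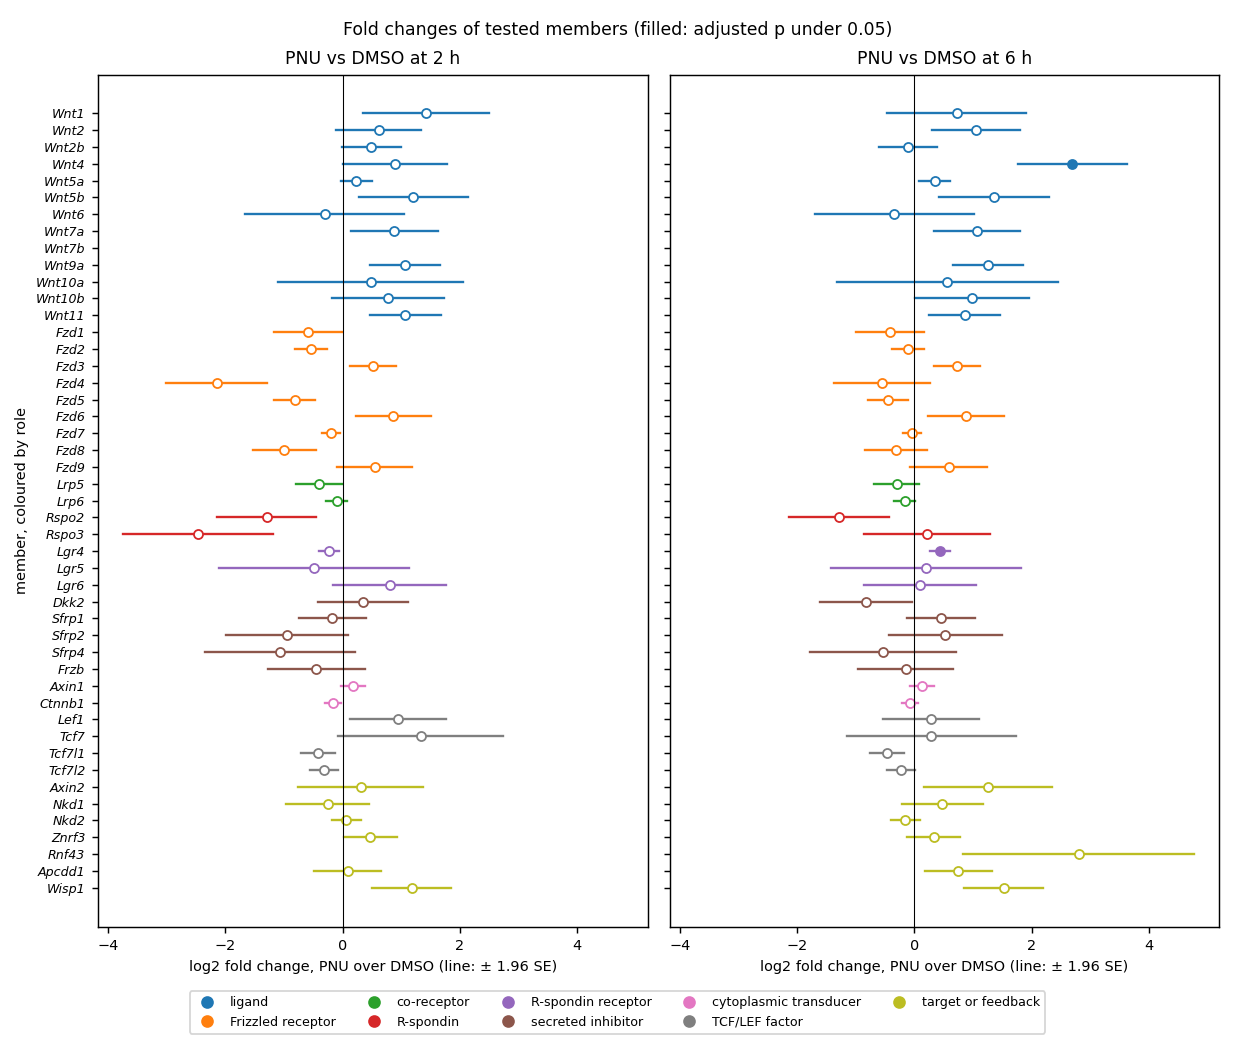
Log2 fold change, PNU over DMSO, of the tested genes at 2 h (left) and 6 h (right); points are estimates, lines are ± 1.96 SE, colours mark roles, and filled points have an adjusted p under 0.05. Ligands lie mostly right of 0 at both times, only Wnt4 and Lgr4 at 6 h are filled, and Wnt7b at both times and Rnf43 at 2 h are not drawn because 1 group averaged at most 3 counts.

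At 6 h, 2 of the 47 genes rose with PNU, the ligand Wnt4 and the R-spondin receptor Lgr4, and none fell. This was 4.26% of the genes, against 1.05% of all tested genes. DESeq2 called 6 of 55 (Wnt4, Wnt5b, Wnt9a, Fzd3, Lgr4 and Wisp1), which was 10.9%, against 1.75% of all 49315 genes, those without counts included. The limma-voom fit called 1 of 47, Lgr4 (2.13%, against 1.04%). There were 18 of 47 (38.3%) at an unadjusted p under 0.05, against 15.6% of all genes, and 25 of 47 (53.2%) whose groups did not overlap, against 34.9% of all genes; 16 of these 25 were higher (34.0%, against 14.1% of all genes) and 9 lower with PNU (19.1%, against 20.8%).

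Wnt4 (chr4:137277489-137299726, plus strand), a ligand needed for kidney and female reproductive tract development in mice, had 2.86, 9.64 and 9.78 CPM with PNU at 6 h, against 1.26, 1.08 and 1.13 CPM with DMSO. The groups did not overlap, although PNU replicate 1 was much lower than the other PNU libraries. Its log2 fold change was 2.70 ± 0.48 (edgeR adjusted p = 0.0243), with 7.43 ± 3.95 CPM with PNU and 1.16 ± 0.0961 CPM with DMSO (SD, n = 3 each). At 2 h it had 3.56, 3.63 and 3.07 CPM with PNU and 1.23, 1.22 and 3.16 CPM with DMSO, with overlap through DMSO replicate 3. The call at 6 h ended without PNU 6 h replicate 2 (adjusted p = 0.106) or 3 (0.109), without DMSO 6 h replicate 1 (0.128), 2 (0.161) or 3 (0.157), with limma-voom (0.0627), and with the counts of near-identical libraries added together (1.00). The range over all 22 alternatives was 3.62e-08 to 1.00, with log2 fold changes of 2.45 to 3.09. Both high libraries were also those with Ddx3y and Sox2 RNA; PNU replicate 1, with 0.141 CPM of Ddx3y and 0.0878 CPM of Sox2, had 2.86 CPM of Wnt4, above the DMSO libraries and below the other PNU libraries; the part of this difference was not tested.

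Of the 13 tested ligands, 11 had a positive fold change at 6 h, with a median of 0.98, while the median was 0.29 over the 47 genes and -0.0049 over all genes tested, and 7 (Wnt2, Wnt4, Wnt5b, Wnt7a, Wnt7b, Wnt9a and Wnt11) had all PNU libraries above all DMSO libraries, as did 14.1% of all tested genes. Wnt9a had 6.46, 8.36 and 7.45 CPM with PNU and 2.89, 2.76 and 3.72 CPM with DMSO, well apart in every library, and did not pass (edgeR adjusted p = 0.0769). Wnt5a had 57.8, 79.8 and 81.6 CPM with PNU and 56.7, 57.7 and 59.5 CPM with DMSO, with overlap through PNU replicate 1. Wnt5b differed more between replicates than between times: it had 3.62, 9.67 and 9.64 CPM with PNU at 6 h and 3.12, 10.5 and 11.1 CPM at 2 h, so that replicates 2 and 3 were high at both times and replicate 1 at neither. With DMSO it had 3.05, 2.91 and 3.03 CPM at 6 h and 4.61, 4.13 and 2.21 CPM at 2 h. Among the 9 tested Frizzled receptors at 6 h, Fzd3 and Fzd6 had all PNU libraries above all DMSO libraries, as did 14.1% of all tested genes. Fzd4, Fzd5 and Fzd7 had all below, as did 20.8% of all tested genes. None of these passed. Fzd4 had 28.2, 20.4 and 19.5 CPM with PNU and 33.1, 32.7 and 34.9 CPM with DMSO. Fzd6 had 10.9, 15.2 and 15.1 CPM with PNU and 7.67, 7.39 and 7.45 CPM with DMSO. Lrp6 had 118, 98.8 and 97.3 CPM with PNU and 118, 118 and 119 CPM with DMSO, and Ctnnb1 had 561, 499 and 502 CPM with PNU and 549, 547 and 563 CPM with DMSO, the first without overlap and the second with it. For Lrp6 this was nearly a tie, with PNU replicate 1 at 117.86 CPM and DMSO replicate 2 at 117.97 CPM.

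**Figure D3:**
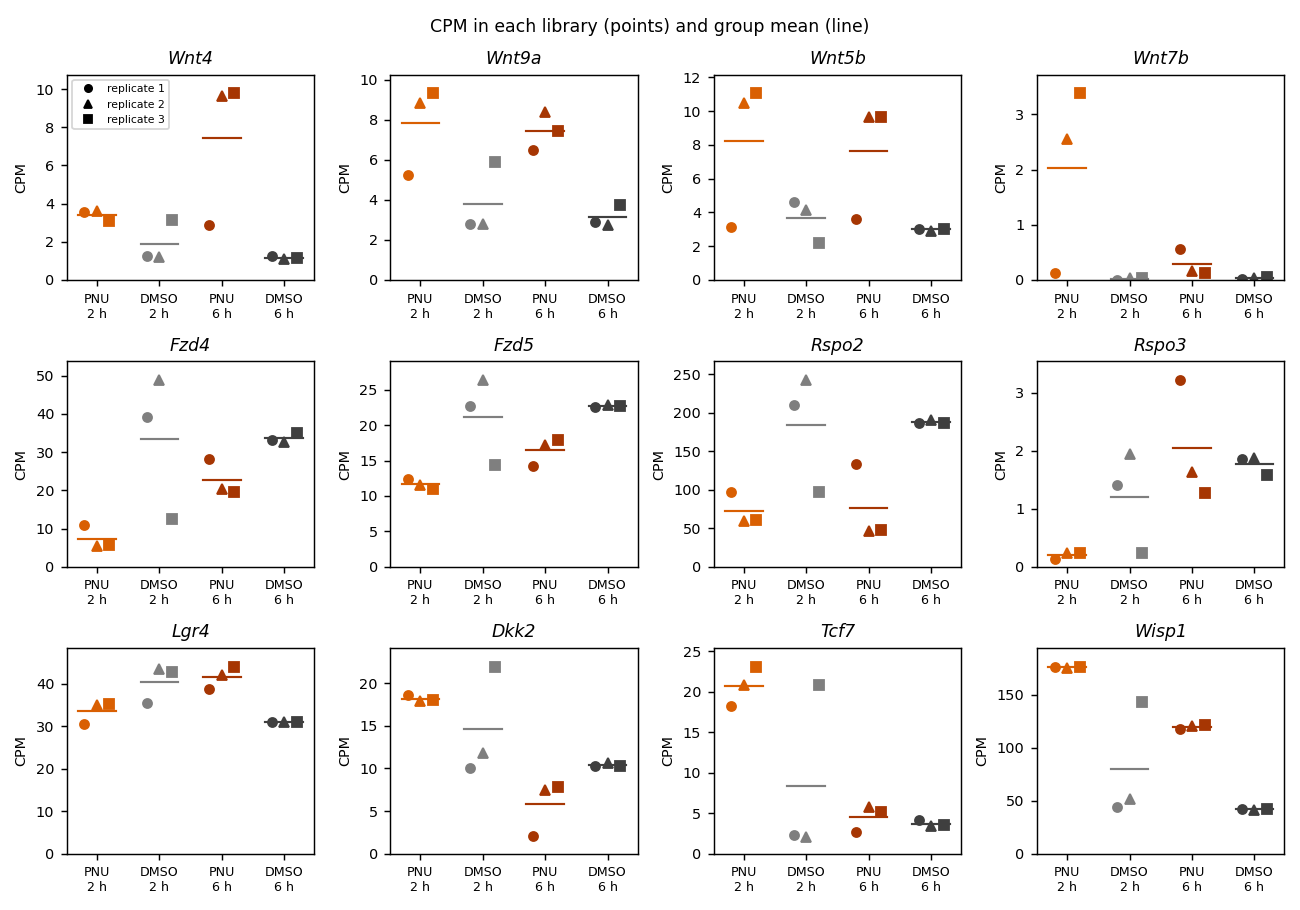
CPM in each library (points, shaped by replicate) and group mean (line) for 12 of the genes, with PNU left of DMSO at each time. DMSO 2 h replicate 3 (square) sits with the PNU libraries for Fzd4, Rspo3, Tcf7 and Wisp1, PNU 6 h replicate 1 (circle) sits apart from the other PNU libraries for Wnt4, Wnt5b, Rspo2 and Dkk2, and Lgr4 is lower with PNU at 2 h and higher at 6 h.

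Among R-spondins and their receptors, Lgr4 rose at 6 h by a small amount, while Rspo2 was lower with PNU at both times without passing. Lgr4 (chr2:109917647-110014257, plus strand), a receptor through which R-spondins raise the Wnt response, had 38.8, 42.0 and 44.0 CPM with PNU at 6 h, against 31.1, 30.9 and 31.0 CPM with DMSO. All PNU libraries were above all DMSO libraries, and the DMSO libraries were nearly equal. The log2 fold change was 0.44 ± 0.085 (edgeR adjusted p = 0.0372), with 41.6 ± 2.61 CPM with PNU and 31.0 ± 0.0800 CPM with DMSO (SD, n = 3 each). The call ended without PNU 6 h replicate 2 (adjusted p = 0.178) or 3 (0.192), without DMSO 6 h replicate 1 (0.177), 2 (0.198) or 3 (0.190), without PNU 2 h replicate 2 (0.0760) or 3 (0.0718), with library totals in place of TMM (0.0655), and with near-identical libraries added together (1.00). Across the 22 alternatives the adjusted p ran from 0.000586 to 1.00 and the log2 fold change from 0.40 to 0.49. At 2 h the order was the opposite: Lgr4 had 30.6, 34.9 and 35.4 CPM with PNU and 35.4, 43.5 and 42.7 CPM with DMSO, the highest PNU library and the lowest DMSO library both rounding to 35.4 CPM.

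Rspo2, the abundant R-spondin of these cultures, had 96.9, 59.7 and 61.3 CPM with PNU and 210.3, 242 and 97.4 CPM with DMSO at 2 h (log2 fold change -1.29 ± 0.43, edgeR adjusted p = 0.0930). At 6 h it had 134, 47.0 and 47.5 CPM with PNU and 187, 190.3 and 186 CPM with DMSO (-1.29 ± 0.43, edgeR adjusted p = 0.186). The groups did not overlap at either time, and PNU replicate 1 was the highest PNU library at both. Rspo3, another R-spondin, had 0.133, 0.239 and 0.241 CPM with PNU and 1.40, 1.95 and 0.235 CPM with DMSO at 2 h, DMSO replicate 3 lying between the PNU libraries. At 6 h it had 3.21, 1.63 and 1.27 CPM with PNU and 1.85, 1.87 and 1.59 CPM with DMSO, the groups overlapping. A share of 13.1% of the exon length of Rspo3 overlaps a gene on the opposite strand, and whether reads were counted by strand was not given in the sources used here. Lgr6, a receptor of the same family, ranged widely among libraries, with 147, 205 and 208 CPM with PNU and 75.1, 76.3 and 176 CPM with DMSO at 2 h. At 6 h Lgr6 had 32.3, 150.3 and 152 CPM with PNU and 106, 103 and 106 CPM with DMSO, so that PNU replicate 1 lay below all DMSO libraries and the others above. Lgr5, known as a stem cell marker, did not exceed 1.14 CPM in any library.

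None of the 5 tested secreted inhibitors passed for PNU at either time; 1 had a positive fold change at 2 h and 2 at 6 h. Sfrp1, which binds Wnt proteins outside the cell, had 177, 73.9 and 75.6 CPM with PNU and 105, 115 and 159.5 CPM with DMSO at 2 h, the groups overlapping. At 6 h Sfrp1 had 122, 114 and 117 CPM with PNU and 85.9, 86.8 and 87.5 CPM with DMSO, without overlap (log2 fold change 0.46 ± 0.29, edgeR adjusted p = 0.498). Sfrp4, of the same family, had 42.0, 9.75 and 9.67 CPM with PNU and 29.5, 30.9 and 29.5 CPM with DMSO at 6 h, with PNU replicate 1 above and the other PNU libraries below all DMSO libraries.

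Among the TCF/LEF factors, Tcf7 and Lef1, which carry β-catenin to DNA and are themselves known targets, split the DMSO group at 2 h. Tcf7 had 18.3, 20.9 and 23.1 CPM with PNU and 2.30, 2.03 and 20.9 CPM with DMSO. Lef1 had 11.1, 13.6 and 15.9 CPM with PNU and 3.97, 4.02 and 13.6 CPM with DMSO. In both genes DMSO replicate 3 lay at the level of the PNU libraries and the other DMSO libraries far below them. At 6 h Lef1 had 4.48, 7.57 and 7.85 CPM with PNU and 5.28, 5.92 and 5.30 CPM with DMSO, and Tcf7 had 2.63, 5.71 and 5.17 CPM with PNU and 4.17, 3.44 and 3.54 CPM with DMSO, both with overlap. Tcf7l1, mainly known as a repressor, had 55.1, 40.8 and 41.0 CPM with PNU and 62.4, 66.0 and 63.2 CPM with DMSO at 6 h, all PNU libraries being lower, and did not pass (edgeR adjusted p = 0.158).

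Of the 7 targets and feedback genes, 6 had a positive fold change at 6 h, with a median of 0.75, and 5 (Axin2, Nkd1, Znrf3, Apcdd1 and Wisp1) had all PNU libraries above all DMSO libraries, as did 14.1% of all tested genes; none passed. Wisp1 (chr15:66891320-66923201, plus strand), a matricellular protein named for its induction by Wnt1, had 118, 121 and 122 CPM with PNU and 42.6, 41.7 and 42.1 CPM with DMSO at 6 h (log2 fold change 1.52 ± 0.35, edgeR adjusted p = 0.0704). The spread within each of these groups was small beside the gap. At 2 h Wisp1 had 176, 176 and 176 CPM with PNU and 44.3, 51.8 and 143 CPM with DMSO, where DMSO replicate 3 was the outlying library. Its 6 h call passed in 8 of 22 alternatives, among them without DMSO 2 h replicate 3 (adjusted p = 1.08e-07), without PNU 6 h replicate 1 (0.0494) and with DESeq2 (0.000384). Axin2, the feedback inhibitor most often read as a target of β-catenin, was scarce, with 1.23, 2.75 and 2.85 CPM with PNU and 0.880, 0.945 and 1.06 CPM with DMSO at 6 h. At 2 h Axin2 had 1.17, 1.63 and 1.79 CPM with PNU and 0.473, 0.637 and 2.67 CPM with DMSO, with DMSO replicate 3 the highest of the 6. Nkd2, which restrains the pathway through Dishevelled in mammals, was nearly level: it had 47.9, 39.1 and 39.1 CPM with PNU and 48.2, 48.1 and 45.7 CPM with DMSO at 6 h, and 55.7, 42.0 and 41.0 CPM with PNU and 46.2, 46.0 and 44.3 CPM with DMSO at 2 h. Rnf43 held 4, 47 and 54 counts with PNU and 3, 4 and 5 counts with DMSO at 6 h, so that again PNU replicates 2 and 3 stood out. Beside these genes at 6 h, the summed level of 10 pericyte and smooth muscle markers was 4438 to 4498 CPM with PNU and 3693 to 3755 CPM with DMSO, with 9 of 10 at a median of at least 1 CPM and 2 risen, and that of 10 fibroblast markers was 16714 to 18568 CPM with PNU and 17772 to 17920 CPM with DMSO, with 2 fallen. That of 8 microglia and leukocyte markers was 7.52 to 11.5 CPM with PNU and 2.02 to 2.96 CPM with DMSO, 1 of them risen and P2ry12 not above the floor. Most of this sum was Csf1r, at 8.45, 7.42 and 7.05 CPM with PNU and 1.99, 1.91 and 2.71 CPM with DMSO. Apart from C1qa, at 1.95 CPM in PNU 6 h replicate 1, the other markers of this list did not exceed 0.597 CPM. The largest term of the pericyte and smooth muscle sum was Acta2, at 2008, 2405 and 2405 CPM with PNU and 1669, 1655 and 1622 CPM with DMSO. Not all of that list rose: Notch3 was at 233, 68.1 and 68.5 CPM with PNU and 208, 200 and 202 CPM with DMSO. The part of all these markers in the Wnt pathway results was not tested.

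**Figure D4:**
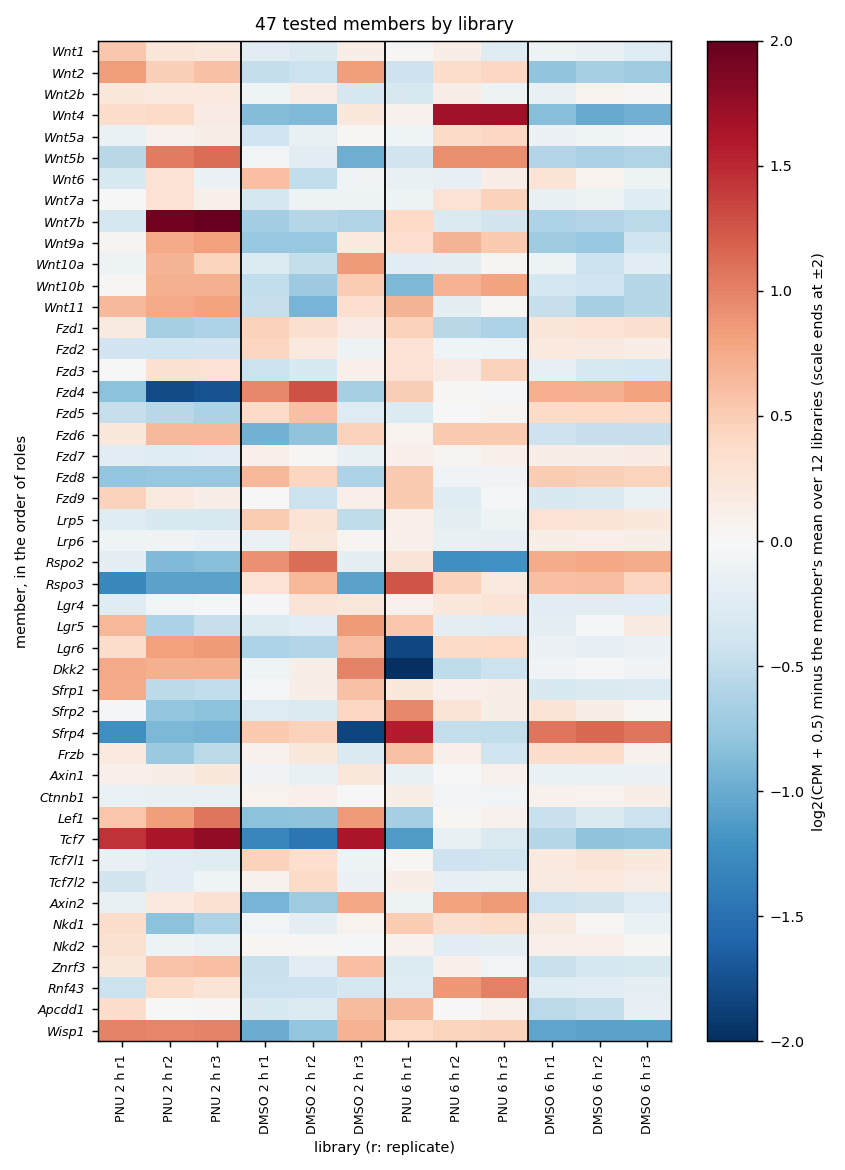
Level of the 47 tested genes in each library, as log2(CPM + 0.5) minus the gene's mean over the 12 libraries (colour scale ending at ±2), in the order of roles. The column of DMSO 2 h replicate 3 resembles the PNU 2 h columns for Fzd4, Rspo3, Tcf7 and Wisp1, and PNU 6 h replicate 1 differs from the other PNU 6 h columns for Wnt4, Rspo2, Lgr6 and Dkk2.

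Whether PNU acted differently at the 2 times was tested as an interaction, 6 h minus 2 h. edgeR called 0 of 47, against 0.0350% of all genes (6 genes), and limma-voom 0, against 0.0233%. DESeq2 called 1 of 55, Lgr4 (1.82%, against 0.483% of all 49315 genes, those without counts included). With edgeR, 5 of 47 (10.6%) had an unadjusted p under 0.05, against 11.3% of all genes. Lgr4 had the smallest p of the 47, with a difference of 0.67 ± 0.12 on the log2 scale (edgeR adjusted p = 0.0886), from being lower with PNU at 2 h and higher at 6 h. Rspo3 (2.69 ± 0.85, edgeR adjusted p = 0.287) and Wnt4 (1.80 ± 0.64, edgeR adjusted p = 0.351) came next. The effects at the 2 times were therefore not shown to differ for any of these genes in this fit. Without DMSO 2 h replicate 3, edgeR called 9 of 47 (19.1%, against 16.7% of all genes), and without that library and PNU 6 h replicate 1 it called 13 (27.7%, against 21.8%).

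With DMSO, no gene passed between the times. For 6 h against 2 h, edgeR and limma-voom called 0 of 47 and 0 genes in all (0%). DESeq2 called 1 of 55, Lgr4 (1.82%, against 0.0406% of all 49315 genes, those without counts included). With edgeR, 3 of 47 (6.38%) had an unadjusted p under 0.05, against 4.77% of all genes. These were Lgr4 (log2 fold change, 6 h over 2 h, of -0.42 ± 0.085, edgeR adjusted p = 0.601), Wisp1 (-0.96 ± 0.34, edgeR adjusted p = 0.888) and Wnt2 (-1.02 ± 0.38, edgeR adjusted p = 0.888). Wnt2 had 1.78, 1.98 and 1.90 CPM at 6 h and 2.31, 2.41 and 6.47 CPM at 2 h, and DMSO 2 h replicate 3 set its mean at 2 h. Without that library the log2 fold change was -0.36 for Wnt2 and -0.22 for Wisp1, which had 143 CPM there, against 44.3 and 51.8 CPM in the other DMSO libraries at 2 h.

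With PNU, 5 of 47 genes changed between the times (10.6%, against 16.1% of all genes): Rspo3, Fzd4 and Fzd7 were higher at 6 h and Dkk2 and Wnt7b lower. At an unadjusted p under 0.05 there were 17 of 47 (36.2%), against 35.1% of all genes, so both shares were near or under the background. Rspo3 (chr10:29452416-29535867, minus strand) had 3.21, 1.63 and 1.27 CPM at 6 h and 0.133, 0.239 and 0.241 CPM at 2 h (log2 fold change 3.23 ± 0.65, edgeR adjusted p = 0.0123). Dkk2 (chr3:132085292-132180304, plus strand), an inhibitor that binds Lrp5 and Lrp6, had 2.13, 7.43 and 7.84 CPM at 6 h and 18.6, 17.9 and 18.1 CPM at 2 h (-1.71 ± 0.41, edgeR adjusted p = 0.0216). Neither pair of groups overlapped, and in both genes PNU 6 h replicate 1 was the extreme library. Fzd4 (chr7:89404355-89413134, plus strand) had 28.2, 20.4 and 19.5 CPM at 6 h and 11.0, 5.40 and 5.59 CPM at 2 h (1.57 ± 0.43, edgeR adjusted p = 0.0348). Fzd7 (chr1:59482424-59486955, plus strand), an abundant receptor, had 198, 190.3 and 197 CPM at 6 h and 159, 156 and 157 CPM at 2 h (0.25 ± 0.077, edgeR adjusted p = 0.0473). The groups again did not overlap, and the change of Fzd7 was small beside that of Fzd4. Wnt7b (chr15:85535439-85581821, minus strand) had 0.562, 0.155 and 0.125 CPM at 6 h and 0.133, 2.55 and 3.38 CPM at 2 h (-2.92 ± 0.88, edgeR adjusted p = 0.0453), with overlap through PNU 2 h replicate 1. With DMSO, Dkk2 had 10.3, 10.6 and 10.2 CPM at 6 h and 10.1, 11.8 and 21.9 CPM at 2 h. Of the 5 calls, 3 to 13 of each gene's 21 or 22 alternatives ended the call, the fewest for Rspo3 and the most for Wnt7b. The calls of all 5 ended without PNU 2 h replicate 2 (adjusted p from 0.0509 to 0.142), without PNU 2 h replicate 3 (0.0528 to 0.156) and with near-identical libraries summed (0.410 to 0.471). The Dkk2 call also ended without PNU 2 h replicate 1 (0.0549) or PNU 6 h replicate 2 (0.0514) and with no filter on low counts (0.0721). The Fzd4 call also ended without any 1 of the 6 h libraries (0.0561 to 0.0901), with limma-voom (0.0519) and with no filter (0.108). The Fzd7 call also ended without PNU 2 h replicate 1 (0.0907) or any 1 of the 6 h libraries (0.0745 to 0.109) and with no filter (0.104). The Wnt7b call also ended without DMSO 2 h replicate 2 (0.0523), without PNU 6 h replicate 2 (0.128) or 3 (0.128), without any 1 DMSO 6 h library (0.0709 to 0.0718), with limma-voom (0.166), with the PNU libraries alone (0.0893) and with no filter (0.132). The replicate number was also fitted as a block, which treats same-numbered PNU libraries of the 2 times as pairs. Ddx3y did not follow these numbers, so the pairing is uncertain. With the block, 8 of 47 passed (17.0%, against 16.6% of all genes). Rspo3, Fzd4 and Dkk2 kept their calls, Fzd7 (edgeR adjusted p = 0.0519) and Wnt7b (0.115) lost theirs, and Fzd2, Fzd8, Sfrp2, Lef1 and Tcf7 were added.

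Of 100 other genes of the pathway, 82 were tested. At 6 h, Ccn5 rose and Adgra2 fell with PNU, 2 of 82 (2.44%, against 1.05% of all genes). Ccn5, also known as Wisp2 and a relative of Wisp1, had 217, 89.4 and 93.1 CPM with PNU and 41.8, 42.0 and 40.5 CPM with DMSO (log2 fold change 1.70 ± 0.30, edgeR adjusted p = 0.0243). Adgra2, a co-receptor that lets Wnt7a and Wnt7b act on brain vessels in mice, had 179.7, 191 and 202 CPM with PNU and 275, 272 and 284 CPM with DMSO (-0.52 ± 0.11, edgeR adjusted p = 0.0491). In both genes the groups did not overlap. At 2 h edgeR called 0 of the 82, with 29 (35.4%, against 30.0% of all genes) at an unadjusted p under 0.05, and limma-voom 0. DESeq2 called 16 of 100, 6 higher and 10 lower, beside 4.93% of all 49315 genes. Those without counts are included there, so this share is no like background for the 100 genes. For the difference between the times edgeR and limma-voom called 0, with 11 (13.4%, against 11.3%) at an unadjusted p under 0.05 in edgeR. DESeq2 called 3 of 100 there, beside 0.483% of all 49315 genes, with the same limit. For time with DMSO all 3 tools called 0, with 4 (4.88%, against 4.77%) at an unadjusted p under 0.05 in edgeR. Between the times with PNU, 12 passed (14.6%, against 16.1% of all genes, a share near the background): Gpc4, Prickle1, Amer1, Pygo1, Hbp1 and Ccn1 rose and Adgra2, Dvl2, Ccdc88c, Tle3, Myc and Runx2 fell; all 12 kept their calls with the replicate block, which added Cby1 (edgeR adjusted p = 0.0478) and Ccn5 (0.0352). Myc, a widely cited target of β-catenin, had 50.3, 65.4 and 63.7 CPM at 6 h and 121, 113 and 112 CPM at 2 h (edgeR adjusted p = 0.0138). Runx2, a transcription factor of bone that acts with the pathway in mice, had 31.0, 32.7 and 33.5 CPM at 6 h and 64.8, 64.6 and 66.6 CPM at 2 h (-1.07 ± 0.13, edgeR adjusted p = 0.00223). Dvl2, a Dishevelled protein that relays the signal from Frizzled, had 65.7, 52.6 and 58.0 CPM at 6 h and 83.2, 84.6 and 89.5 CPM at 2 h (-0.60 ± 0.093, edgeR adjusted p = 0.00509).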

How the data were processed

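RNA-seq of 12 Müller glia libraries was analysed. Per the labels' protocols, the authors enriched poly(A) RNA, used paired 150-base reads, cleaned these with fastp 0.23.2, mapped them with STAR 2.5.2b onto the GRCm38 genome and obtained gene counts from featureCounts (Subread 1.5.2). DESeq2 appears in the submitters' processing notes without a stated role. What the authors deposited is 1 table per library of raw whole-number counts, unnormalized. Not given in the sources used here are the annotation release, the use of strand and the treatment of multi-mapping reads, which makes overlapping genes and close copies uncertain. Symbols came from GENCODE M21 and RefSeq synonyms, positions and exon lengths from the deposited tables. Totals of 44332013 to 66518799 counts limit the precision of low genes.

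CPM, CPM per kilobase and tests were computed here from those counts. edgeR 4.0.16 (R 4.3.3) filtered genes with filterByExpr and applied TMM scaling, and a robust quasi-likelihood fit used 4 group means and every library, with a common biological coefficient of variation of 0.198. There were 5 contrasts: the PNU effect at each time, its change between times, and time within each treatment. P-values were adjusted by Benjamini and Hochberg's method across the genes tested; each SE is the log2 fold change over the square root of F. Groups came from the sample titles. The script was tested on simulated counts. Deviations from the group mean of same-numbered libraries correlated at 0.192 to 0.258 in all 3 pairs of the PNU 2 h and 6 h groups. The replicate number was therefore taken to pair these. Libraries of other numbers correlated at -0.236 to 0.198 there, the near-identical replicates 2 and 3 among them. Ddx3y did not follow the numbers. With PNU, replicates 1, 2 and 3 had 2.23, 0.0870 and 0.0150 CPM at 2 h, and 0.141, 7.43 and 6.74 CPM at 6 h. Whether same-numbered libraries shared a culture is thus not settled. In the other group comparisons, none of the 3 pairs was over 0.1.

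Full statistics go to every pathway gene that passed, and in a contrast where fewer than 3 passed, to those of smallest p up to 3; 12 genes have their levels given whatever their values. Statistics of Rspo2, Sfrp1, Wnt9a and Tcf7l1, and all other genes described singly, were picked with their values in view. The 55 genes and all lists were chosen with earlier results of these data known. Alternatives were DESeq2 1.42.0, limma-voom (limma 3.58.1), other scalings and filters, the 2 groups alone, a replicate block, near-identical libraries summed, and libraries left out. Figures were drawn with matplotlib 3.10.9.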

Additional observations from a re-analysis of the deposited data

Results flagged for a closer look

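For the R-spondin receptor Lgr4, all 3 PNU libraries lay below all 3 DMSO libraries at 2 h and above them at 6 h. The PNU effect at 6 h minus that at 2 h was 0.67 ± 0.12 on the log2 scale (SE), with an unadjusted p of 0.000148 and an edgeR adjusted p of 0.0886 over all genes, so the difference between the times was not called. Over 21 alternatives the difference ran from 0.62 to 0.74 and the adjusted p from 0.000664 to 1.00. It passed in 5 of them: with DESeq2 (0.000664), without DMSO 2 h replicate 1 (0.0408), without DMSO 2 h replicate 3 (0.00492), without PNU 6 h replicate 1 (0.0292), and without DMSO 2 h replicate 3 and PNU 6 h replicate 1 together (0.00122). At 2 h the gap between the groups was small, the nearest libraries both rounding to 35.4 CPM. The cause was not tested.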

How the results depend on the processing

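The number of pathway genes called depended on the processing in all 5 comparisons. The causes were not tested. Most settings tested 47 of the 55 genes. DESeq2 and the fit with no filter tested 55, the stricter filter 38, the 2 groups alone 43 to 47, and near-identical libraries summed 49. Percentages are shares of the pathway genes tested, against the share of all genes. For DESeq2, all genes are the 49315 counted, those without any count included, and with no filter they include genes of very few counts. Such genes lower the share of all genes, so in these settings it is no like background for the pathway genes. For PNU against DMSO at 2 h (0 called), the count was 11 with DESeq2 (20.0%, against 4.93%), 1 with no filter on low counts (1.82%, against 0.427%) and 3 with a replicate block (6.38%, against 1.81%). It was 36 without DMSO 2 h replicate 3 and PNU 6 h replicate 1 (76.6%, against 52.2%), and 0 to 27 with each library left out in turn. The 27 (57.4%, against 43.8%) came without DMSO 2 h replicate 3. For PNU against DMSO at 6 h (2 called, 4.26%, against 1.05%) it was 1 with library totals alone (2.13%, against 1.08%) and 1 with limma-voom (2.13%, against 1.04%). It was 6 with DESeq2 (10.9%, against 1.75%), 9 with the libraries of the 2 groups alone (20.9%, against 10.1%) and 4 with a replicate block (8.51%, against 1.72%). Without the pair of libraries it was 30 (63.8%, against 28.6%). With each left out it was 0 to 12, the 12 (25.5%, against 9.10%) without DMSO 2 h replicate 3. For the difference between the times (0 called) it was 1 with DESeq2 (1.82%, against 0.483%) and 13 without the pair (27.7%, against 21.8%). With each left out it was 0 to 9, the 9 (19.1%, against 16.7%) without DMSO 2 h replicate 3. For time with DMSO (0 called) it was 1 with DESeq2 (1.82%, against 0.0406%), 2 without the pair (4.26%, against 0.672%) and 0 with each left out. For time with PNU (5 called, 10.6%, against 16.1%) it was 9 with library totals (19.1%, against 16.5%), 10 with DESeq2 (18.2%, against 7.83%) and 1 with no filter (1.82%, against 5.85%). It was 13 with the 2 groups alone (27.7%, against 32.1%), 8 with a replicate block (17.0%, against 16.6%) and 22 without the pair (46.8%, against 35.4%). With each left out it was 0 to 16, the 16 (34.0%, against 34.2%) without DMSO 2 h replicate 3. Summing left 2, 3, 2 and 1 libraries for PNU 2 h, DMSO 2 h, PNU 6 h and DMSO 6 h, so that the lone library was assumed to vary like the other groups; it called 0 genes in every comparison, with 1487 at an unadjusted p under 0.05 at 2 h and 267 at 6 h. Among the fold changes of the 55 genes that the rule gave full statistics, no direction reversed. For the other fold changes printed here, the direction was not compared between settings. Of 160 alternative group means, 153 lay within 1 SD of the mean as given and 7 did not. These alternatives were TMM scaling and leaving out 1 of the 3 libraries. Leaving out 1 of 3 cannot move a mean by 1 SD, so for those means the outcome was fixed in advance. The count is therefore no measure of how firm the means are. The replicate numbers met the condition for pairing in the comparison of the PNU groups alone, although Ddx3y did not follow them there. Elsewhere the block moved the counts as given, Runx2 among the other pathway genes passing at 2 h (adjusted p = 0.0454), and a call gained or lost there is no measure of the effect. Over all groups, same-numbered libraries correlated from -0.389 to 0.502, with 5 of 18 pairs over 0.1, and 8 of 12 libraries correlated best with one of their own number.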
